A study of Mus musculus with 10 samples.

Results

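The GABA-A receptor subunit genes Gabra2, Gabra3, Gabra4, Gabra5, Gabrb1, Gabrb2 and Gabrg1 were examined in lumbar spinal cord RNA of mice given paclitaxel or vehicle. They were taken by gene symbol from a table of 24411 genes, in which all 7 were present and all 7 passed the filter on low counts. They belong to 19 subunit genes of the receptor family in the table, of which 11 passed that filter. Paclitaxel is a microtubule-stabilising cancer drug that causes a painful neuropathy. There were 5 libraries per group, called by treatment and replicate number. The labels give the tissue and the treatment; strain, age, sex, dose, route and time after treatment are not stated in them. Whether the 5 samples came from 5 separate mice is not stated either, and p-values therefore speak only of the spread among these samples, which may be technical.

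The GABA-A receptor is a chloride channel of 5 subunits opened by GABA. Most receptors combine α, β and γ subunits. The α subunit shapes the affinity for GABA and the response to benzodiazepines, the β subunit is needed for assembly and GABA binding, and the γ subunit completes the benzodiazepine site and helps to anchor the receptor at synapses. In the dorsal horn, receptors holding α2 or α3 carry much of the synaptic inhibition that dampens pain signals, and those holding α5 are largely extrasynaptic. The γ1 subunit is a minor variant of the γ class that has been found in glia as well as in neurons.

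Of the 7 genes, 4 lay in a single cluster on chromosome 5 that spanned 1.40 Mb (GRCm38, the assembly that mm10 names). In order these were Gabrg1 (chr5:70751047-70842617), Gabra2 (chr5:70958392-71095849), Gabra4 (chr5:71569734-71658308) and Gabrb1 (chr5:71657921-72149572). Gabra4 and Gabrb1 run in opposite directions and their annotated spans overlap by 388 bases, so reads from that stretch cannot be told apart unless the counting used strand, which is not stated in the sources used here. Gabrb2 is on chromosome 11 (chr11:42419515-42632591), Gabra5 on chromosome 7 (chr7:57407669-57591016) and Gabra3 on the X chromosome (chrX:72432676-72656919). The span of Gabra5 overlaps that of 1 other protein-coding gene by 499 bases, and its expected count was not a whole number in 6 of 10 libraries. The counts of the other 6 genes were whole in every library.

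The stretches before the start sites of Gabrg1 and Gabra2 are shown because these neighbouring genes hold the lowest and the highest GC content among the upstream stretches of the 7 genes. RefSeq sequences of 250 bases upstream of an annotated start were available for all 7 genes, 11 in all since some genes have several starts. CpG dinucleotides are in capitals.
Gabrg1 (chr5:70842618-70842867, minus strand, GRCm38.p6): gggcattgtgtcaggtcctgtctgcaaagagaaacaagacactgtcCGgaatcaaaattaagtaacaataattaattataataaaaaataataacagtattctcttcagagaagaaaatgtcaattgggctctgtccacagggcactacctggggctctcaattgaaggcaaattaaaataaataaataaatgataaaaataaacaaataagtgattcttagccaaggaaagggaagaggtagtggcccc
Gabra2 (chr5:71095850-71096099, minus strand, GRCm38.p6): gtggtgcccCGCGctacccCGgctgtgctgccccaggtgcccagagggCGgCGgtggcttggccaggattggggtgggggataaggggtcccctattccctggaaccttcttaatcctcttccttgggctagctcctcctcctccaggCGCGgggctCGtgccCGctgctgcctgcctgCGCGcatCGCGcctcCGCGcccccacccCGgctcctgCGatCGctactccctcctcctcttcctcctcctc
The Gabrg1 stretch held 1 CpG at a GC content of 35.6%, and the Gabra2 stretch held 18 at 70.0%. Of 32851 upstream stretches of this length in mouse, 7.87% held fewer CpGs than that of Gabrg1 and 78.3% held fewer than that of Gabra2. Both stretches of Gabra3 held 0. The motif TATAAA, searched on both strands, was in 3 of the 11 stretches (both of Gabra3 and 1 of Gabrb2), against 12.4% of all upstream stretches. The Gabra3 stretches overlap and hold the same match, which is thus counted for each. These matches describe the letters only.

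Depth, as the sum of gene counts, was 3676259 to 5432072 for paclitaxel and 4585899 to 7791594 for vehicle, so that 3 counts corresponded to 0.385 to 0.819 CPM (counts scaled to library size). The 7 genes had between 56 and 1183 counts in each library. Of the cell markers read, 9 neuronal, 10 astrocyte and 6 oligodendrocyte markers all had counts. So did the markers of Schwann cells and dorsal root ganglion and of meninges and fibroblasts. Having counts therefore does not test the label of the tissue. In bulk tissue such as this, fewer cells of a type and less RNA per cell cannot be told apart.

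Compared per transcript length, the order of levels over the 10 libraries was Gabra3, Gabra5, Gabrb2, Gabrg1, Gabra2, Gabra4 and Gabrb1. Gabra3 was at 41.3 ± 4.63 CPM per kb (SD, n = 10), Gabra5 at 24.1 ± 2.05, Gabrb2 at 20.2 ± 2.48 and Gabrg1 at 10.2 ± 1.30 CPM per kb. Gabra2 followed at 6.24 ± 0.50 CPM per kb, Gabra4 at 4.56 ± 0.57 and Gabrb1 at 1.13 ± 0.18. Each gene was above the next in all 10 libraries, except that Gabra2 was above Gabra4 in 9. The ranges of Gabra5 and Gabrb2 overlapped, as did those of Gabra2 and Gabra4, and no others of neighbours in the order did. The length used for Gabrb1 was 13737 bases, by far the longest of the 7, and its level per kb depends on that length. With the median transcript as length, or with no length scaling, 20 of the 21 pairs kept their order. Without length scaling the pair that turned was Gabra5 and Gabrb2, and Gabrb2 was then the higher in every library. Their mean CPM was 65.0 and 81.3 with paclitaxel and 63.7 and 79.5 with vehicle. The order of these 2 genes thus depends on the lengths used, 2671 bases for Gabra5 and 3989 for Gabrb2.

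**Figure D1:**
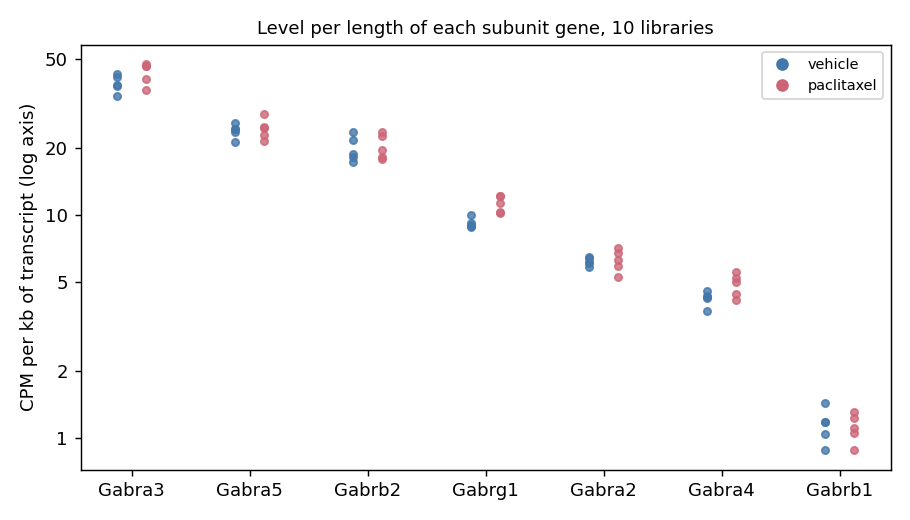
Level per transcript length (CPM per kb, log axis) of the 7 subunit genes in each vehicle and paclitaxel library; each point is a library. Gabra3 is highest in every library and Gabrb1, at 0.882 to 1.43 CPM per kb, lowest.

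The γ class was represented by Gabrg1, which had the largest difference of the 7 genes between paclitaxel and vehicle. It was at 54.1, 49.4, 58.2, 58.1 and 48.8 CPM in paclitaxel replicates 1 to 5 and at 47.7, 43.1, 42.5, 44.1 and 42.0 CPM in vehicle replicates 1 to 5. The groups did not overlap, and the gap between the lowest paclitaxel library (replicate 5) and the highest vehicle library (replicate 1) was small. The groups also did not overlap in 1.09% of all tested genes, 0.467% with paclitaxel higher. The log2 fold change was 0.29 (SE 0.08, 95% interval 0.13 to 0.45), a ratio of 1.22. Gabrg1 ranked 8 of 13287 genes by its unadjusted p of 9.63e-04, and its adjusted p of 0.792 in edgeR's test did not pass. Earlier results of these same libraries had already named Gabrg1, so the rank is a description. Gabrg1 was at 0.18 (SE 0.07, edgeR adjusted p = 0.989) once each library was corrected for transcript GC content and length, an alternative chosen with the data in view. With any single library left out it ran from 0.26 to 0.32.

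**Figure D2:**
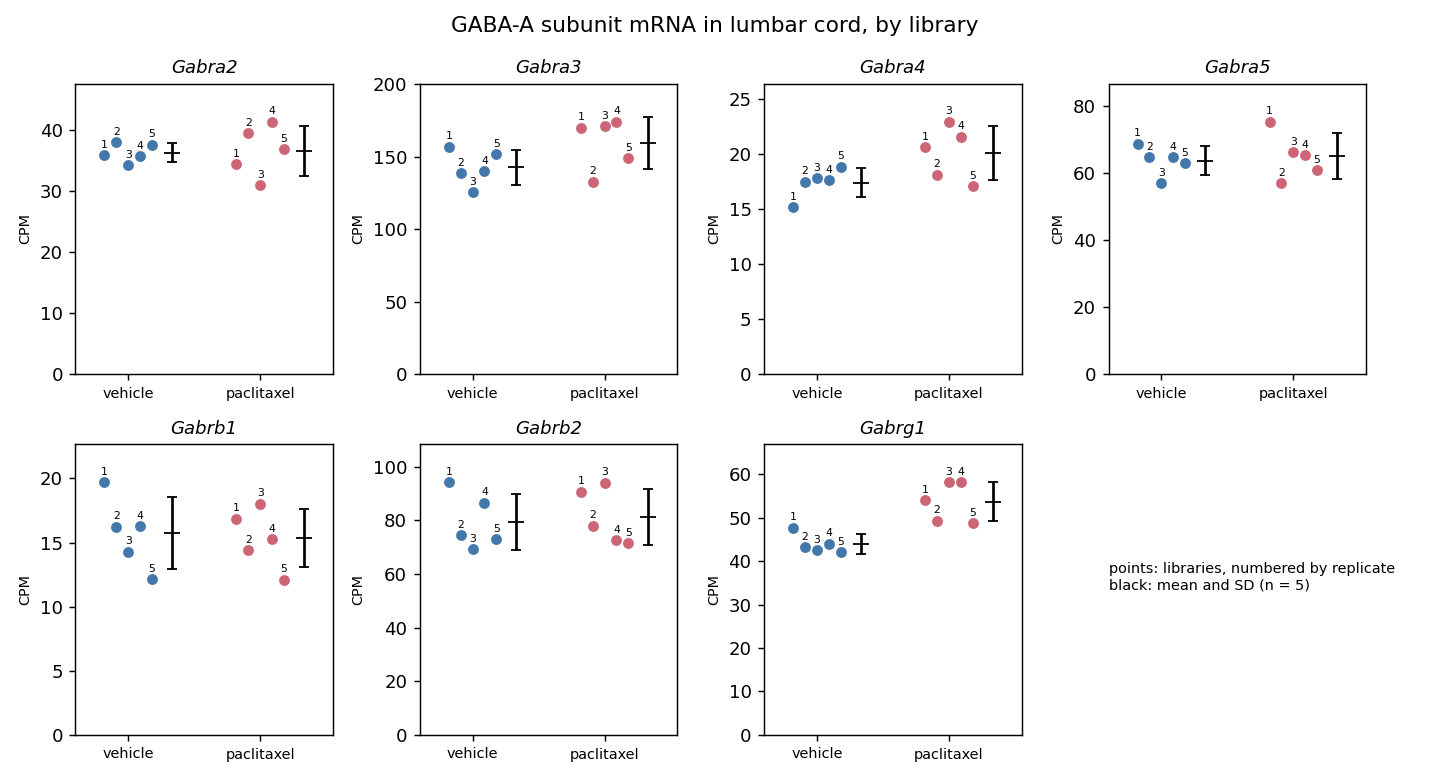
CPM of each subunit gene by library, numbered by replicate, with group mean and SD (n = 5) in black. The paclitaxel points of Gabrg1, 48.8 to 58.2 CPM, all lie above the vehicle points, 42.0 to 47.7 CPM, while the groups overlap in the other 6 panels.

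Among the α subunits, Gabra3 and Gabra4 had values above those of vehicle in most libraries, and Gabra2 and Gabra5 were close to it. Gabra3, the α subunit of highest level here, was at 170.2, 133, 171, 174 and 149 CPM in paclitaxel replicates 1 to 5 and at 157, 139, 126, 140.2 and 152 CPM in vehicle replicates 1 to 5. Of the paclitaxel libraries, 3 exceeded every vehicle library and replicate 2 lay below the vehicle mean. It differed by 0.16 on the log2 scale (SE 0.07, 95% interval 0.00068 to 0.31; unadjusted p = 0.0491, adjusted p = 0.80 by edgeR). Without any 1 of paclitaxel replicates 1, 3 and 4 and vehicle replicates 2, 3 and 4, that unadjusted edgeR p exceeded 0.05. It reached up to 0.134, and was 0.00442 without paclitaxel replicate 2. With the GC and length correction the log2 fold change of Gabra3 was 0.11 (edgeR unadjusted p = 0.0956). Its unadjusted p was 0.0553 by DESeq2 and 0.0786 by limma-voom.

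Gabra4, which forms extrasynaptic and benzodiazepine-insensitive receptors, was at 20.6, 18.1, 22.9, 21.6 and 17.1 CPM in paclitaxel replicates 1 to 5 and at 15.2, 17.5, 17.8, 17.6 and 18.8 CPM in vehicle replicates 1 to 5. Again 3 paclitaxel libraries (replicates 1, 3 and 4) exceeded every vehicle library, and the groups overlapped through replicates 2 and 5. The log2 fold change was 0.19 (SE 0.11, 95% interval -0.03 to 0.42, adjusted p = 0.80 by edgeR), and 0.14 with the GC and length correction.

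Gabra2, a subunit of synaptic receptors of the dorsal horn, was at 34.5, 39.6, 31.0, 41.5 and 36.9 CPM with paclitaxel and at 36, 38.1, 34.3, 35.8 and 37.7 CPM with vehicle, each in replicate order. The paclitaxel libraries lay on both sides of the vehicle range, with a coefficient of variation of 11.3% against 4.2%. The log2 fold change of Gabra2 was 0.01 (SE 0.09), and its 95% interval, -0.17 to 0.18, left room for a ratio from 0.889 to 1.14. It turned to -0.08 with the GC and length correction, and lay below 0 without any 1 of paclitaxel replicates 2 and 4 and vehicle replicate 3.

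Gabra5, the subunit of tonic, largely extrasynaptic inhibition, was at 75.5, 57.1, 66.2, 65.5 and 60.9 CPM with paclitaxel and at 68.9, 64.8, 57.0, 64.9 and 62.9 CPM with vehicle, in replicate order. The groups overlapped over nearly their whole range, and paclitaxel replicate 1 was the highest library. The log2 fold change was 0.02 (SE 0.08, 95% interval -0.13 to 0.18; adjusted p = 0.972 by edgeR) and turned to -0.03 without that library and to -0.008 without vehicle replicate 3.

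The β subunits Gabrb1 and Gabrb2 did not separate the groups. Gabrb2 was at 90.7, 78.0, 94.0, 72.6 and 71.4 CPM with paclitaxel and at 94.2, 74.6, 69.3, 86.6 and 72.9 CPM with vehicle, in replicate order, and the group ranges nearly coincided. Gabrb2 had a log2 fold change of 0.03 (SE 0.09, 95% interval -0.16 to 0.23; adjusted p = 0.967 by edgeR). With the GC and length correction it was -0.006. It was -0.004, -0.02 and -0.007 without paclitaxel replicate 1, paclitaxel replicate 3 and vehicle replicate 3.

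Gabrb1, the β gene of lowest level, was at 16.9, 14.4, 18.0, 15.3 and 12.1 CPM with paclitaxel and at 19.7, 16.2, 14.3, 16.3 and 12.2 CPM with vehicle, in replicate order. Both groups spanned a wide range, with coefficients of variation of 14.9% and 17.7%. The log2 fold change was -0.03 (SE 0.14, 95% interval -0.32 to 0.25; adjusted p = 0.981 by edgeR). With any single library left out it ran from -0.13 (without vehicle replicate 5) to 0.07 (without vehicle replicate 1), and it was also above 0, at 0.05, without paclitaxel replicate 5. With the GC and length correction it was -0.12.

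By edgeR's quasi-likelihood test 0 of the 7 genes had an adjusted p under 0.05, against 0% of all tested genes. At an unadjusted p under 0.05 there were 2, Gabrg1 and Gabra3, against 6.07% of all genes. Both were higher in value with paclitaxel, against 2.94% of all genes, and 0 were lower, against 3.12%. That count of 2 became 1 without any 1 of paclitaxel replicates 1, 3 and 4 and vehicle replicates 2, 3 and 4, and 3 without paclitaxel replicate 5. DESeq2 and limma-voom each gave 1 member at that level and 0 by adjusted p, and over the whole table they called 1 and 0 genes. A value above 0 was found for 6 of 7, against 49.1% of all genes, with a median log2 fold change of 0.03 against -0.003 over all genes. Without vehicle replicate 3 the number above 0 was 3. Of the 12 other subunit genes in the table, 4 passed the filter, all with values above 0 and 1 with an unadjusted p under 0.05. The minor subunit genes Gabre, Gabrg3 and Gabrr2 stayed under the filter, with mean levels between 1.32 and 2.25 CPM in either group.

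**Figure D3:**
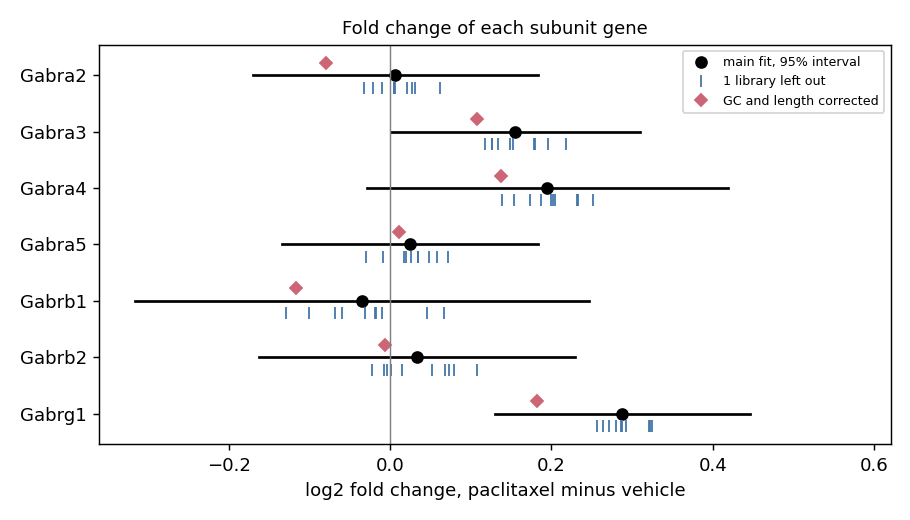
Log2 fold change (paclitaxel minus vehicle) of each subunit gene from the fit of all libraries with its 95% interval (black), with 1 library left out at a time (blue ticks) and after correction for GC content and length (red diamonds). Gabrg1 keeps values from 0.18 to 0.32 over these settings, and the values of Gabra2, Gabra5, Gabrb1 and Gabrb2 fall on both sides of 0.

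Shares within a class show whether the mix of subunits differed, apart from any difference common to the class. Each share is the gene's CPM per kb as a percentage of the sum over all genes of its class in the table. Gabrg1 made up 23.0%, 24.0%, 24.6%, 26.6% and 24.5% of the γ class in paclitaxel replicates 1 to 5 and 21.6%, 23.0%, 23.5%, 22.9% and 21.3% in vehicle replicates 1 to 5. All paclitaxel libraries exceeded the vehicle mean and 4 exceeded every vehicle library, with replicate 1 inside the vehicle range. The mean share of Gabrg1 was 24.5% ± 1.33 with paclitaxel and 22.5% ± 0.99 with vehicle, a difference of 2.08 percentage points (SD, n = 5 each). A two-sided exact permutation test gave p = 0.0238, where 0.00794 is the smallest value it can give. It is unadjusted, and 7 shares were tested. Earlier results of these same libraries had already named Gabrg1, and its share is built from the same CPM values. This p is therefore a description, as is the rank above. With the GC and length correction the difference was 1.75 percentage points (exact permutation p = 0.0556), and without paclitaxel replicate 3 and vehicle replicate 4 together, which stand apart in marker sums, it was 2.19 (exact permutation p = 0.0857). The summed level of the γ class was 45.9 ± 3.55 CPM per kb with paclitaxel and 41.0 ± 3.27 CPM per kb with vehicle (SD, n = 5 each). The groups overlapped in this sum, at 41.7 to 49.6 and 37.9 to 46.4 CPM per kb. Class and share were both higher in value, but the sum includes Gabrg1 itself, at 11.3 and 9.20 CPM per kb.

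In the α class Gabra3 held the largest share, 47.1% ± 2.36 with paclitaxel and 45.2% ± 1.19 with vehicle (SD, n = 5 each; exact permutation test, p = 0.19). The share of Gabra5 was 28.0%, 25.8%, 25.7%, 25.8% and 26.2% in paclitaxel replicates 1 to 5 and 27.7%, 28.2%, 27.8%, 28.2% and 26.7% in vehicle replicates 1 to 5. Thus 4 paclitaxel libraries lay below every vehicle library, while replicate 1 lay among the highest. Gabra5 differed by -1.39 percentage points (exact permutation test, two-sided, unadjusted p = 0.0317), and by -0.82 with the GC and length correction (p = 0.27, exact permutation test). The Gabra5 difference had p from 0.0635 to 0.0714 (exact permutation test) without any 1 of paclitaxel replicates 2 to 5 and vehicle replicates 1 to 4 (126 assignments), at -1.39 to -1.23 percentage points. That of Gabra3 had p = 0.0397 (exact permutation test) without paclitaxel replicate 2, at 2.64 percentage points. Gabra2 and Gabra4 made up 6.84% and 5.28% of the class with paclitaxel and 7.24% and 4.94% with vehicle (exact permutation p = 0.452 and 0.365). With the longest transcript as length, the 4 α genes described here held 83.2% to 89.0% of the class. These percentages depend on that length. With the median transcript as length, the mean Gabra5 share was 11.7% with paclitaxel and 12.3% with vehicle. With no length scaling it was 18.9% and 19.9%.

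In the β class Gabrb2 made up 37.7% ± 1.83 with paclitaxel and 39.3% ± 2.20 with vehicle, and Gabrb1 2.07% ± 0.18 and 2.26% ± 0.30 (SD, n = 5 each). Neither share differed beyond the spread between libraries (exact permutation p = 0.27 and 0.222). The Gabrb1 difference had p = 0.0397 (exact permutation test) without vehicle replicate 5, at -0.30 percentage points. Among the 7 shares, only that of Gabrb1 had all 5 paclitaxel libraries below the vehicle mean.

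**Figure D4:**
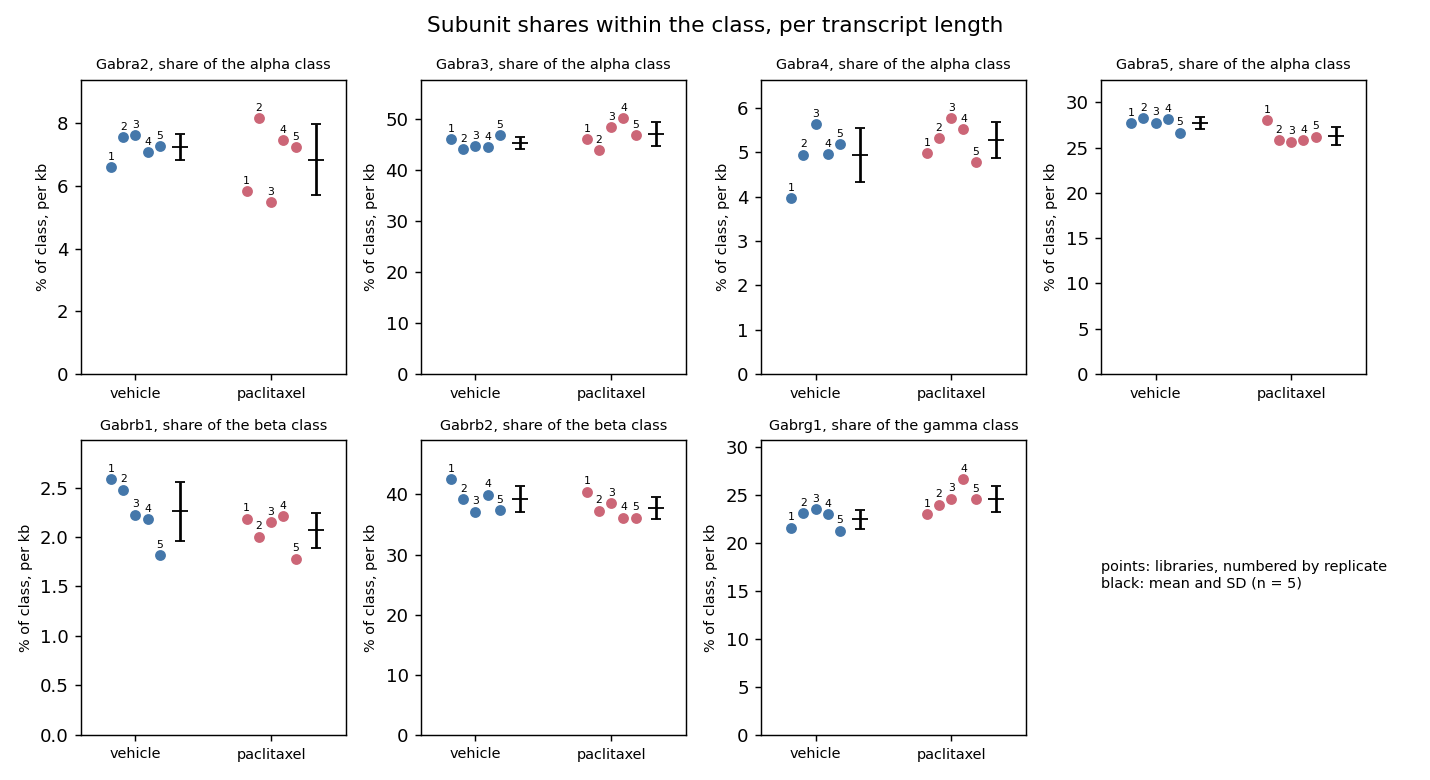
Share of each subunit gene in its α, β or γ class (percent of summed CPM per kb) by library, with group mean and SD (n = 5) in black. The Gabrg1 share reaches 26.6% in paclitaxel replicate 4 against at most 23.5% with vehicle, and the Gabra5 share is under 26.3% in all paclitaxel libraries except replicate 1.

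Set against the other subunits in the same library, the ratio of Gabrg1 to each of the other 6 genes had a higher mean with paclitaxel, with the groups overlapping for every one. The ratio of Gabrg1 to Gabra5 counts was 0.83 ± 0.07 with paclitaxel and 0.69 ± 0.03 with vehicle, and that to Gabrb2 was 0.667 ± 0.08 and 0.557 ± 0.05 (SD, n = 5 each). In each case 4 paclitaxel libraries exceeded every vehicle library. Relative to its cluster neighbour Gabra2 the ratio was 1.48 ± 0.25 and 1.21 ± 0.09, with 3 paclitaxel libraries above every vehicle library. Relative to Gabra4, also in the cluster, it was 2.69 ± 0.12 and 2.55 ± 0.35, and 0 paclitaxel libraries exceeded the highest vehicle library. These ratios were not tested. All have Gabrg1 as numerator, which earlier results of these same libraries had named and which had the largest fold change of the genes compared. A higher mean ratio to each of the others restates that larger fold change and is not separate evidence.

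Base composition moved with the fold changes. The Gabrg1 transcript had a GC content of 35.3%, the lowest of the 7, and 0.281% of tested genes were lower. Gabra2 stood at 38.4%, Gabrb1 at 40.9%, Gabra4 at 42.2%, Gabra3 at 43.1%, Gabrb2 at 44.0% and Gabra5 at 47.1%, all below the median of tested genes, 49.8%. Ordered by GC content, the lowest decile of genes (31.0% to 41.5% GC) had a median log2 fold change of 0.08, with 78.9% of genes above 0, and the highest decile of -0.08, with 20% above 0. An unadjusted p under 0.05 with a value above 0 was reached by 9.20% of genes in the lowest decile and by 0.156% in the highest. The median of the lowest decile was 0.05 without paclitaxel replicate 3 and 0.12 without vehicle replicate 1. Gabrg1, Gabra2 and Gabrb1 fall in the lowest decile, and among them Gabrg1 exceeded that decile's median while Gabra2 and Gabrb1 lay under it. The median GC content of that decile was 39.8%, above that of Gabrg1 and Gabra2. Its median fold change is therefore not the value typical of their GC content. Gabra4 and Gabra3 fall in the decile of 41.5% to 43.9% GC, where 73.1% of genes were above 0. In the deciles of Gabrb2 (43.9% to 46.0% GC) and Gabra5 (46.0% to 47.9% GC) it was 66.1% and 57.1% of genes.

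**Figure D5:**
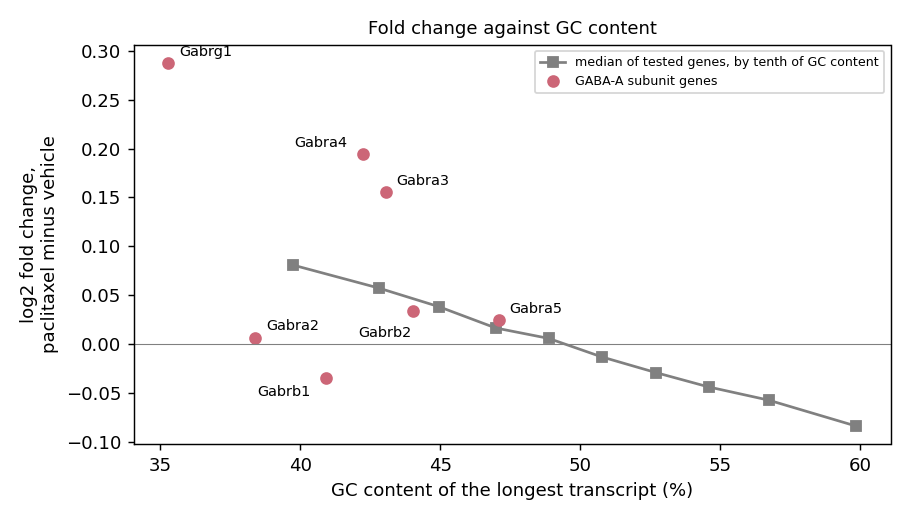
Log2 fold change (paclitaxel minus vehicle) against GC content of the longest transcript for the 7 subunit genes (red), with the median fold change of all tested genes in each decile of GC content at that decile's median GC (grey). Medians run from 0.08 to -0.08 as GC rises. Gabra4 and Gabra3 lie above the grey line and Gabrb1 below it. The line starts at 39.8% GC, and Gabrg1 and Gabra2 lie to the left of its start.

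Markers of the cells that carry these receptors were read beside them. Summed over 9 neuronal markers, the level was 7664 to 8491 CPM with paclitaxel and 8259 to 8491 CPM with vehicle, and 4 of 9 markers had values above 0 (median log2 fold change -0.002). The 6 markers of inhibitory neurons summed to 732 to 862 CPM with paclitaxel and 777 to 835 CPM with vehicle, with 2 of 6 above 0. Within these 6 the values differed in sign. Slc32a1, the vesicular GABA transporter, had 248 ± 22.6 CPM under paclitaxel against 284 ± 16.8 CPM under vehicle (SD, n = 5 each), with 4 paclitaxel libraries below every vehicle library and a log2 fold change of -0.19 (edgeR unadjusted p = 0.00406, adjusted p = 0.792). For Gad2, whose product makes GABA, the log2 fold change was 0.18 (edgeR unadjusted p = 0.0164, adjusted p = 0.792), and for Gad1, which encodes the other form of that enzyme, it was 0.009. The 10 astrocyte markers summed to 6651 to 7368 and 6524 to 7068 CPM, with 8 of 10 above 0 and a median of 0.03. None of these 25 markers was at 0 in every library, and the groups overlapped in each sum. At an unadjusted p under 0.05 in edgeR there were 1 of 9 neuronal, 2 of 6 inhibitory and 1 of 10 astrocyte markers, against 6.07% of all tested genes. By adjusted p there were 0, against 0% of all tested genes. A value above 0 was found for 49.1% of all tested genes. Of 6 markers of Schwann cells and dorsal root ganglion, 3 passed the filter and 1 had a value above 0. The sum of the 6 was 142.6 CPM in paclitaxel replicate 3 against 209.5 CPM or more in the other paclitaxel libraries. That library also had the lowest sums of all libraries for neurons (7664 CPM), motor neurons (174), oligodendrocytes (20779) and their precursors (201), microglia (140) and endothelium (98.7). It was not the lowest for inhibitory neurons, excitatory neurons, astrocytes or meninges and fibroblasts. Vehicle replicate 4 had the highest sum of meninges and fibroblast markers, 88.1 CPM. Without these 2 libraries the Gabrg1 log2 fold change was 0.26. The part of cell composition in the Gabrg1 value was not tested.

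Proteins that assemble, traffic or anchor the receptor were also read from a list of 21 partner genes. Values were above 0 for 11 and below 0 for 10, with a median log2 fold change of 0.008. None passed over all genes in edgeR's quasi-likelihood test, and 1 of 21 had an unadjusted p under 0.05, a share no higher than the 6.07% of all tested genes. That gene, Plcl1 (adjusted p = 0.792 by edgeR), encodes the inositol-phosphate binding protein PRIP1 that binds β and γ subunits, and had a log2 fold change of 0.14 (SE 0.06) from 120.4 ± 8.0 CPM in vehicle to 132 ± 7.38 CPM in paclitaxel (SD, n = 5 each). Among the others, Lhfpl3, a relative of the GABA-A receptor auxiliary protein Lhfpl4, had a log2 fold change of 0.12, and Gabarap, a receptor-associated trafficking protein, one of 0.11.

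After subtracting group means, which removes the mean difference between treatments, the genes whose log2 CPM tracked Gabrg1 most closely over the 10 libraries were 4932438A13Rik (Pearson r = 0.95), Syap1 (0.94), Sytl5 (0.93), Tsr2 (0.91), Cep44 (0.91), Prkg1 (0.91), Prkaa2 (0.90) and Whsc1 (0.90). They are the highest of 13286 genes compared, so high values are part of how they were picked, and all points share library depth and base composition. Prkg1, the cGMP-dependent protein kinase, had a log2 fold change of 0.27 with paclitaxel and Sytl5 one of 0.48, while those of Syap1 (-0.02), Tsr2 (-0.03) and Cep44 (-0.10) lay below 0.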

How the data were processed

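Per the labels' protocols, mRNA libraries from lumbar cord were sequenced on an Illumina instrument. The authors deposited RSEM expected counts per gene, with no scaling to library size. STAR, RSEM, edgeR 4.2.0 and build mm10 come from the submitters' processing notes; the annotation and the strand setting are not stated there. Values were rounded before testing, since 5.04% held decimals.

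Genes were filtered with filterByExpr (minimum count 10, minimum total 15), scaled by TMM and fitted with edgeR 4.0.16 (R 4.3.3), quasi-likelihood, robust, without covariates. Benjamini-Hochberg adjustment ran over all tested genes (threshold 0.05, two-sided). DESeq2 1.42.0 and limma 3.58.1 were alternatives. The fit was tested on simulated data. Every pair of replicates differed by more than counting noise (chi-square over its degrees of freedom, 1.63 to 6.88). The pairs that held paclitaxel replicate 3 had the highest values, 5.08 to 6.88, and no other pair exceeded 4.53.

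Lengths and GC content came from the longest GENCODE M21 transcript. The correction fitted a loess on both per library. Share tests used all 252 assignments of 5 against 5 libraries, 126 with 1 library left out and 70 with 1 left out of each group.

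The members and lists were chosen with earlier results of these data known. Named genes were the 7 members, the other subunit genes as class context, the 4 partners of lowest p and the 8 genes of at least 1 CPM tracking Gabrg1 most closely; Slc32a1, Gad1 and Gad2 were added after values were seen. Some other subunit genes enter the class sums, and these and 1 of those partners are not reported here by name.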

Additional observations from a re-analysis of the deposited data

Results flagged for a closer look

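The Gabra5 share of the α class in paclitaxel replicate 1, 28.0%, stood apart from the other paclitaxel libraries, which lay between 25.7% and 26.2%; the gap was 0.764 of the group's range, above Dixon's critical value of 0.71 for 5 samples. It was the 1 group set apart among 28 checked (CPM and share of 7 genes in each treatment), and chance sets apart about 1 in 20. Without this library the Gabra5 share difference was -1.82 percentage points (exact permutation p = 0.0159).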

How the results depend on the processing

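For Gabrg1 the log2 fold change stayed above 0 and short of the threshold in all 20 alternatives (0.18 to 0.32; adjusted p from 0.363 to 1.00), as it did with the replicate number as a block (0.28, adjusted p = 0.783). The block gave 0 members past an adjusted p of 0.05 and 2 at an unadjusted p under 0.05, as without it, and 1 gene in the whole table. Whether the numbers pair the samples is not stated in the labels. Same-number correlations of deviations ran from -0.10 to 0.14, with 2 of 5 libraries closest to their own number. So few pairs cannot decide it. No alternative put any member past the threshold. The number of members at an unadjusted p under 0.05 was 1 in DESeq2, in limma-voom, after the GC and length correction with or without the block, and without paclitaxel replicate 3 and vehicle replicate 4 together, and ran from 1 to 3 with single libraries left out; the number above 0 ran from 3 to 7. Signs turned for Gabra2 in limma-voom (-0.0017) and with the correction (-0.079, and -0.080 with the block), and for Gabrb2 with the correction (-0.00634, and -0.00628 with the block). With single libraries left out, Gabra2 ran from -0.032 to 0.062, Gabra5 from -0.030 to 0.072, Gabrb1 from -0.129 to 0.067 and Gabrb2 from -0.023 to 0.107. The Gabrg1 share difference ran from 1.56 to 2.46 percentage points when single libraries were left out (exact permutation p up to 0.0476). Its exact permutation p exceeded 0.05 without both libraries named above (2.19, p = 0.0857) and after the GC and length correction (1.75). These p-values too are a description, since Gabrg1 had been named from the same libraries. For the Gabra5 share difference the exact permutation p exceeded 0.05 with the median transcript as length (-0.60) and with no length scaling (-1.01). It also did so within the members only (-1.76), without both libraries (-1.11) and after the correction (-0.82). The same held without any 1 library except paclitaxel replicate 1 or vehicle replicate 5 (-1.82 to -1.23 over all). The Gabrb2 share turned to 0.24 within the members only. Left out singly, libraries moved the Gabra3 share from 1.07 to 2.64 and that of Gabrb1 from -0.30 to -0.11. The cause of these moves was not tested. Gabrb1, at 56 to 109 counts, is the least precise member.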
